A study of Mus musculus with 20 samples.

Results

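The mitochondrially encoded genes are the genes of the small circular genome inside mitochondria. They were taken as all entries of the count table whose symbol starts with mt-, which gave 37 of 37620 genes: 13 protein genes, 2 ribosomal RNA (rRNA) genes and 22 transfer RNA (tRNA) genes. The RNA came from mouse cells held on microbeads against B220, a form of CD45 that B cells carry. All samples had the C57BL/6 strain background. The normal group (n = 4) came from normal spleen, the vector group (n = 8) from VavPBcl2 lymphomas with an empty vector, and the Myc group (n = 8) from VavPBcl2 lymphomas transduced with Myc. Both lymphoma groups thus carry the VavPBcl2 transgene, in which regulatory elements of Vav, a gene of blood cells, drive the apoptosis blocker Bcl2, and the normal group does not. The labels used here give no age, treatment time or passage, and they do not state whether replicates are different animals. Each p-value therefore refers to the spread among these libraries, which may be technical.

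The genome of mitochondria is transcribed from both strands into long precursors that are cut, mostly at the tRNAs, into rRNAs, tRNAs and messenger RNAs. The messenger RNAs encode core subunits of respiratory complexes I, III and IV and of the ATP synthase (complex V), while all other subunits of these complexes, and every protein that copies, transcribes and processes the mitochondrial genome, come from nuclear genes. mt-Nd6 is the protein gene on the strand opposite to the other protein genes. Mitochondrial messenger RNAs carry short poly-A tails, and poly-A RNA was isolated before these libraries were made, per the labels' protocols.

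Members lie end to end or overlap, so short members can share reads with their neighbours. The sequences below are those on which the results turn: the tRNA whose 8 Myc values all lay above those of the other 12 samples (mt-Tt, MT:15289-15355), the tRNA with the most counts (mt-Tm, MT:3845-3913), the tRNA between mt-Rnr2 and mt-Nd1 (mt-Tl1, MT:2676-2750) and the tRNA called between runs (mt-Tw, MT:4950-5016). All are on the plus strand of GRCm38 as in GENCODE vM21.
mt-Tt: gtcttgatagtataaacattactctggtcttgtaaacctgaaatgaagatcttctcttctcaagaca
mt-Tm: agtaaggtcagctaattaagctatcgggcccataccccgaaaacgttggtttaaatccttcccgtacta
mt-Tl1: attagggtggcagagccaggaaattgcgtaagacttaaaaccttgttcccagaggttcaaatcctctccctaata
mt-Tw: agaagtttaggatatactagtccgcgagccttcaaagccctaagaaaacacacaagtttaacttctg
The other 2 stretches show bases over which neighbouring genes cannot be counted apart. Capitals mark the 43 bases that belong to both mt-Atp8 and mt-Atp6 (MT:7897-7999) and the 7 bases that belong to both mt-Nd4l and mt-Nd4 (MT:10137-10203). Reads over such bases fit both genes, and the count table holds a line for ambiguous reads with 0.2 to 0.4% of all reads per sample.
mt-Atp8 and mt-Atp6: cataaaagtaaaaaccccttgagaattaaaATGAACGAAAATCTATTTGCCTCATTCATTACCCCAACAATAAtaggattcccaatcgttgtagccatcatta
mt-Nd4l and mt-Nd4: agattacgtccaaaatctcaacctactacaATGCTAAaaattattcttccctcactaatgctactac

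Per sample, 28.7 to 56.3 M counts (M, 1e6) fell on genes. The run numbers place 7 samples in later sequencing runs of their instruments, namely vector replicates 1 to 6 and normal replicate 1. The other 13 samples came from earlier runs: normal replicates 2 to 4, vector replicates 7 and 8 and all 8 Myc lymphomas. Vector replicates 7 and 8 also share a title prefix that no other sample has, so within the vector group the run and whatever that prefix stands for cannot be told apart. Within the earlier runs the Myc transcript of the Myc lymphomas exceeded that of the vector lymphomas 9.79-fold (log2 fold change 3.29 ± 0.66, SE, adjusted p = 0.008, edgeR). The 11 B cell markers summed to 7030 to 7991 CPM (counts per M counts on genes, scaled by library) in the earlier normal samples, to 6561 and 10591 in the earlier vector lymphomas and to 1875 to 5866 in the Myc lymphomas. Erythroid markers reached 5998 to 82506 CPM in Myc lymphomas and neutrophil markers 1656 to 17012, so transcripts typical of other blood cells were present, and in bulk RNA fewer cells of a type and less RNA per cell cannot be told apart.

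The samples split by run before they split by group. In the 3 earlier normal samples the 37 members held 5.03, 5.27 and 6.46% of the gene counts, and in the later normal sample 0.758%. The 2 earlier vector lymphomas held 6.39 and 8.63%, and the 6 later ones 0.387% at the lowest, 0.619% at the median and 1.05% at the highest. The 8 Myc lymphomas, all from earlier runs, held 7.12% at the lowest, 10.9% at the median and 21.6% at the highest. No later sample came near any earlier sample. The 95% interval of each share (exact binomial, counting error only) was at most 0.014 percentage points to either side.

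**Figure D1:**
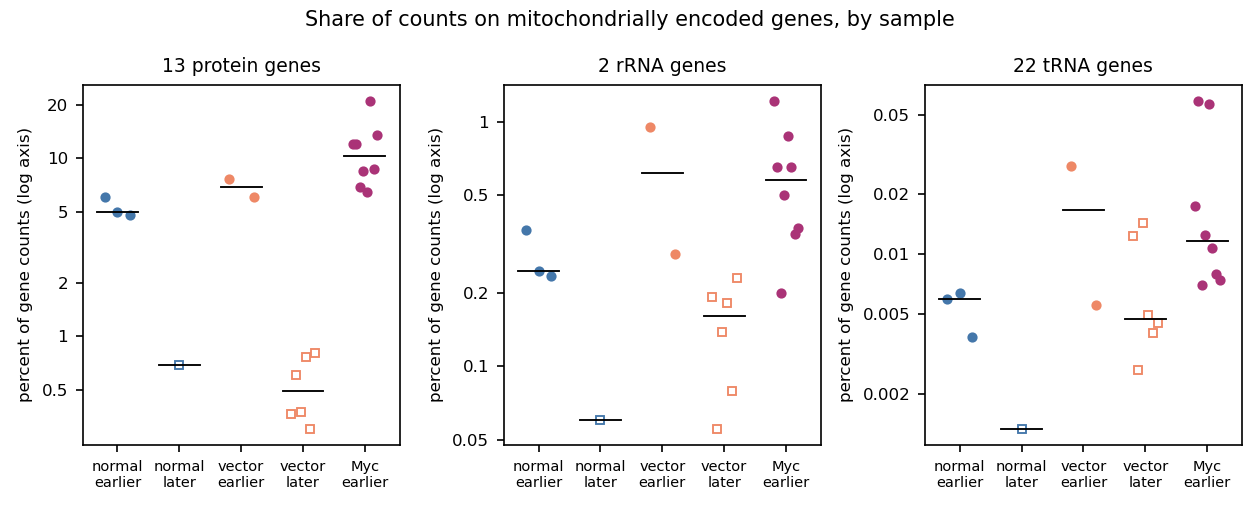
Percent of gene counts (y axis, log scale) on the 13 protein genes, the 2 rRNA genes and the 22 tRNA genes in each of 20 samples, by group and run period; filled circles are earlier runs, open squares later runs, and black lines medians. Protein genes hold 4.80 to 21.0% in every earlier sample and 0.304 to 0.813% in every later one, while the tRNA shares of earlier and later samples overlap.

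Each of the 4 instruments sequenced samples of both periods, and the split was present on each. On the instrument named han the 13 protein genes held 5.02 to 6.91% of gene counts in 3 earlier samples and 0.696% in the later normal sample. On leia the values were 6.09 to 8.46% (2 samples) and 0.304 to 0.766% (3 samples), on luke 4.80 to 12% (4 samples) and 0.609 to 0.813% (2 samples), and on yoda 7.65 to 21.0% (4 samples) and 0.377% (1 sample).

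mt-Co1, the catalytic subunit of cytochrome c oxidase (complex IV), shows the split for a single gene. It stood at 16952, 13165 and 12687 CPM in normal replicates 2, 3 and 4 and at 2832 CPM in normal replicate 1. In vector replicates 7 and 8 it stood at 19601 and 19223 CPM, against 1386 CPM at the lowest, 1959 at the median and 3247 at the highest in vector replicates 1 to 6. Later samples lay below earlier ones in both groups, with no overlap. The difference in the vector lymphomas was 8.91-fold (log2 fold change -3.16 ± 0.45, SE, adjusted p = 0.00076, edgeR).

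mt-Atp8, a small subunit of the ATP synthase, had the largest difference of the 34 tested members in vector lymphomas and of the 13 protein genes in normal samples. It held 1104, 834 and 888 CPM in the earlier normal samples and 54.2 CPM in the later one. The earlier vector lymphomas held 1759 and 1138 CPM, and the later ones 25.3 CPM at the lowest, 39.0 at the median and 103 at the highest. The levels again did not overlap, and the vector difference was 29.5-fold (log2 fold change -4.88 ± 0.48, SE, adjusted p = 1.5e-05, edgeR).

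In all, 14 of the 34 members with enough counts to test fell in later against earlier vector lymphomas and 0 rose. Of the 19965 genes tested, 3.34% were called lower and 0.536% higher (3.87% in either direction). The 14 were 12 protein genes, mt-Rnr1 and mt-Tw. The log2 fold changes of the 13 protein genes had a median of -3.79, against 0.03 over all genes tested. The log2 fold changes of the complex I subunits mt-Nd1, mt-Nd2, mt-Nd3, mt-Nd4, mt-Nd4l and mt-Nd5 were -3.79, -4.34, -4.35, -3.96, -4.19 and -3.58. mt-Cytb, the mitochondrially encoded subunit of complex III, stood at -3.73, the complex IV subunits mt-Co2 and mt-Co3 at -3.69 and -3.74, and mt-Atp6 of complex V at -4.42. These 12 protein genes did not overlap between the periods, nor did the 2 rRNA genes and 2 tRNA genes, where 14.4% of all genes tested lay lower without overlap. With the instrument as a term, an alternative chosen after seeing the data, 12 members were called lower.

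The exception among the protein genes was mt-Nd6, the complex I subunit read from the opposite strand. It stood at 2.87, 4.61 and 3.84 CPM in the earlier normal samples and at 3.0 CPM in the later one. The earlier vector lymphomas held 8.86 and 3.53 CPM, and the later ones 1.13 CPM at the lowest, 2.44 at the median and 4.5 at the highest. The periods overlapped in both groups. The vector difference of -1.18 ± 0.45 (log2, SE) did not pass the test (adjusted p = 0.16, edgeR), and whether mt-Nd6 differs from the other protein genes in this was not tested. Per 1000 counts on protein genes, mt-Nd6 held 0.0533 to 0.124 counts in the 13 earlier samples and 0.139 to 1.20 in the 7 later ones.

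**Figure D2:**
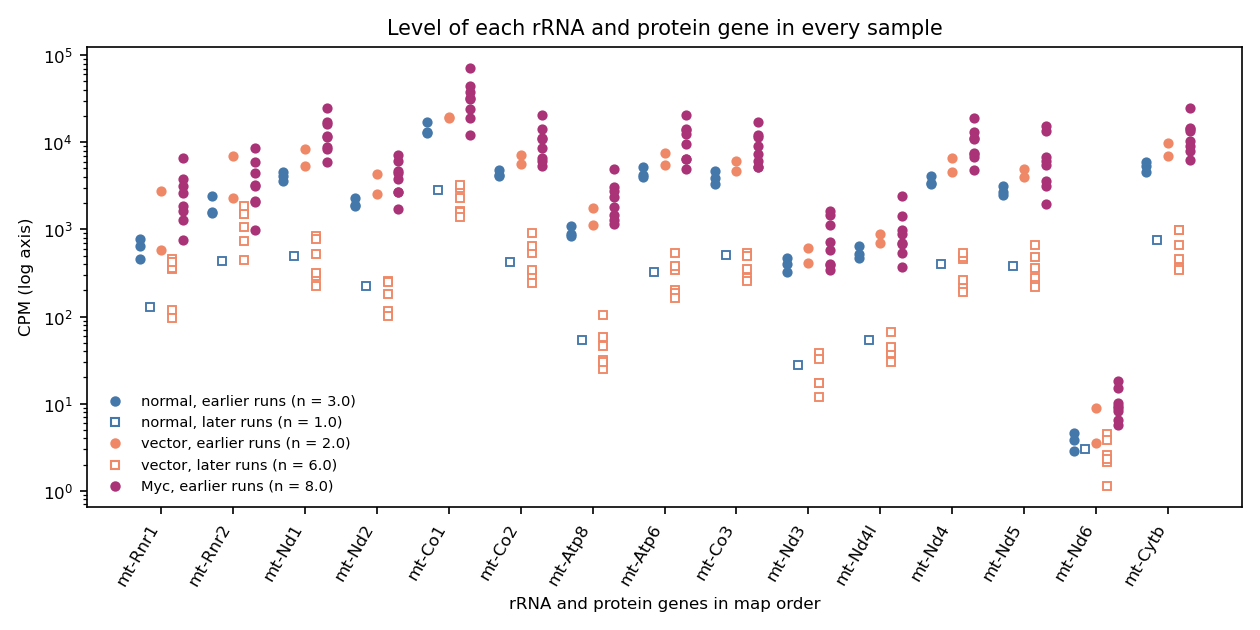
CPM (y axis, log scale) of the 2 rRNA and 13 protein genes in each of 20 samples, in map order, by group and run period. For the 12 protein genes other than mt-Nd6 every open square (later run) lies below every filled circle (earlier run), while mt-Nd6 lies between 1.13 and 18.3 CPM with the periods mixed.

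In the normal samples, where the later period has 1 sample and its spread is assumed to be like that of the other samples, 0 of 34 members passed the test and 17 had an unadjusted p under 0.05 (edgeR). Of all 19965 genes, 0% were called in this comparison and 4.06% had an unadjusted p under 0.05. DESeq2 called 10 members lower. All 34 log2 fold changes were below 0, with a median of -3.16 over the 13 protein genes against 0.00 over all genes. In 29 members the later sample lay below all 3 earlier ones, as did 30.8% of all genes tested (36.2% lay above all 3). mt-Co1 differed by -2.33 ± 0.83 and mt-Atp8 by -4.12 ± 0.96 (log2, SE, adjusted p = 1 for both, edgeR). The vector and normal run differences were set against each other by an interaction term. It called 0 of 34 members and 0% of all genes (1 member and 2.03% of all genes at an unadjusted p under 0.05, edgeR), with a median of -0.77 over the 13 protein genes. Their range ran from -1.17 ± 0.78 for mt-Nd2 to -0.33 ± 0.85 for mt-Co2 (log2, SE).

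**Figure D3:**
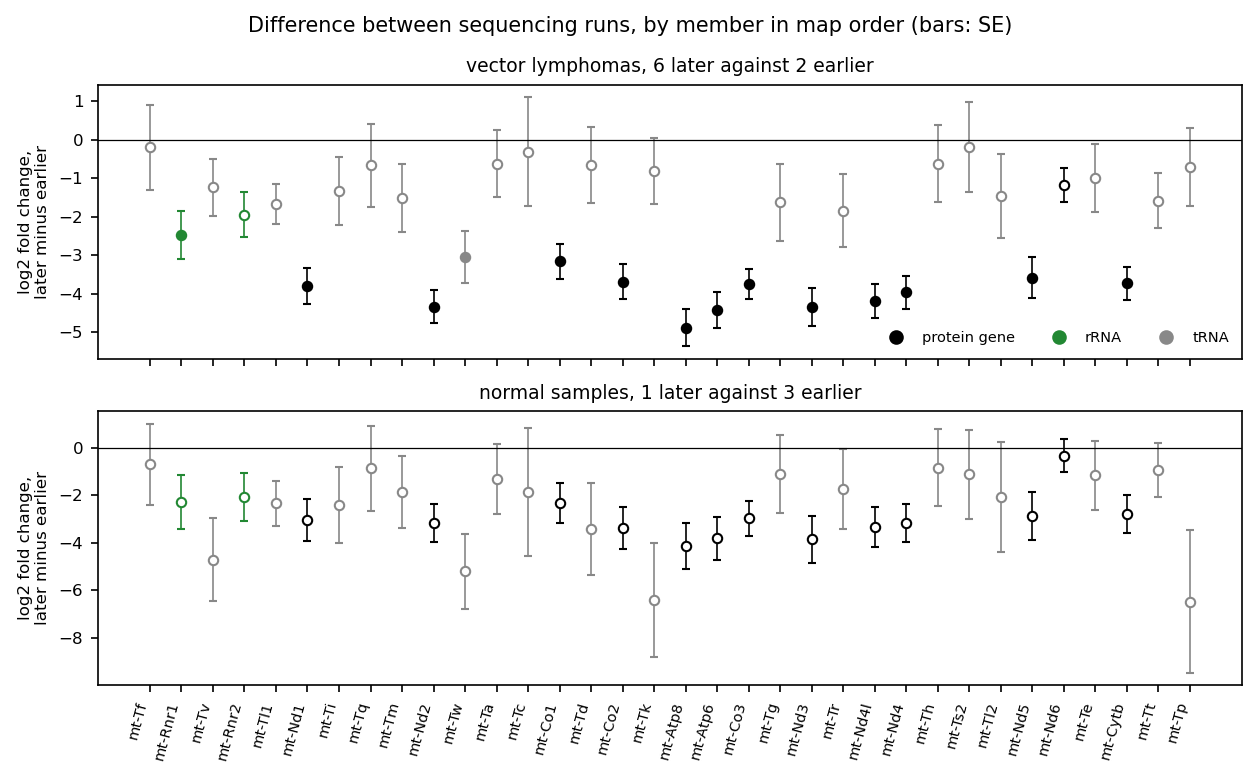
Log2 fold change of later against earlier runs (y axis; bars are SE) for the 34 tested members in map order, in vector lymphomas (top) and normal samples (bottom); filled points have an adjusted p under 0.05. Protein genes other than mt-Nd6 sit at -3.16 to -4.88 in vector lymphomas, below every tested tRNA (-3.04 to -0.19). In normal samples mt-Tp, mt-Tk, mt-Tw and mt-Tv (-6.47 to -4.70, 0 to 2 counts in the later sample) sit below every protein gene (lowest -4.12).

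In vector lymphomas the rRNAs differed less between runs than the protein genes other than mt-Nd6 by these estimates. The difference between the classes was not tested. mt-Rnr1 and mt-Rnr2 encode the RNAs of the small and the large subunit of the mitochondrial ribosome. mt-Rnr2 stood at 2404, 1547 and 1579 CPM in the earlier normal samples and at 435 CPM in the later one. In vector lymphomas it stood at 6924 and 2272 CPM in the earlier samples and at 450 CPM at the lowest, 1287 at the median and 1868 at the highest in the later ones. Periods did not overlap within a group, and the vector difference was -1.95 ± 0.58 (log2, SE, adjusted p = 0.061, edgeR). mt-Rnr1 fell by 2.47 ± 0.63 on the log2 scale (SE, adjusted p = 0.031, edgeR), but its call was lost without vector replicate 7 (-1.01, adjusted p = 0.76), without vector replicates 2, 4 or 5 (adjusted p = 0.058, 0.052 and 0.065) and with the instrument as a term (adjusted p = 0.092). Set against the protein genes of the same sample, the 2 rRNAs held 48.5 to 59.2 counts per 1000 in the earlier normal samples and 86.6 in the later one. The same ratio was 47.0 and 125 in the earlier vector lymphomas, 91 to 518 in the later ones and 27.1 to 136 in the Myc lymphomas. Per kilobase of gene, median mt-Rnr2 ranked 13 of the 15 rRNA and protein genes in earlier normal samples (998 CPM per kb) and 2 of 15 in later vector lymphomas (813 CPM per kb).

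The tRNAs made up the smallest share, at 0.00384 to 0.0585% of gene counts in the 13 earlier samples and 0.00134 to 0.0143% in the 7 later ones. The median log2 fold change of the 19 tested tRNAs between periods was -1.0 in vector lymphomas, with a range of -3.04 to -0.19. In normal samples, with 1 later sample, the median was -1.85. The range there was -6.47 (mt-Tp, 0 counts in the later sample) to -0.70. Of the 19 in vector lymphomas, only mt-Tw, which lies just after mt-Nd2, was called lower. It stood at 1.93 and 1.25 CPM in the earlier vector lymphomas and at 0.107 CPM at the lowest, 0.142 at the median and 0.351 at the highest in the later ones (log2 fold change -3.04 ± 0.67, SE, adjusted p = 0.016, edgeR). The call was lost without vector replicate 7 or without vector replicate 8 (adjusted p up to 0.13) and with the instrument as a term (adjusted p = 0.12). Per 1000 counts on protein genes, tRNAs held 0.800 to 1.27 counts in earlier normal samples and 1.92 in the later one, 0.918 and 3.61 in earlier vector lymphomas and 4.31 to 38.0 in later ones. Of the 22 tRNA genes, mt-Tn, mt-Ty and mt-Ts1 had 0 counts in all 20 samples. By counting error alone this allows up to 0.0533 to 0.104 CPM per sample (3 counts). Reads lost in alignment or counting are not covered by that limit. mt-Tn, mt-Ty and mt-Ts1 are among the 8 tRNA genes on the strand of mt-Nd6, and each of the 14 tRNA genes on the other strand had counts.

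The make-up of the mitochondrial counts also differed between the periods, which describes the libraries and was not tested. Of the counts on all 37 members, mt-Atp6 held 9.0 to 9.16% in earlier normal samples and 4.54% in the later one. It held 8.51 and 8.55% in earlier vector lymphomas and 3.43 to 7.73% in later ones, so later samples were lower in both groups without overlap. mt-Co1 held 28.1 to 29.7% in earlier normal samples and 40.0% in the later one. In vector lymphomas it held 22.4 and 30.3% in earlier samples and 28.0 to 33.9% in later ones, which overlap. When only the 13 protein genes formed the denominator, mt-Co1 held 25.3 and 31.7% in earlier vector lymphomas and 36.6 to 43.4% in later ones, without overlap, so this pattern turns on whether the rRNAs are counted in. Per kilobase, mt-Co1 was the highest and mt-Nd6 the lowest of the 15 rRNA and protein genes in each group and period by median.

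Nuclear genes that act on the mitochondrial genome were compared between the same runs, where 0.536% of all genes tested were called higher and 3.34% lower. The next 5 lists gave 0 to 2 calls each, too few beside those shares to say anything about these genes in particular. Of 38 nuclear partners in the respiratory chain, 0 rose and 2 fell in later vector lymphomas (median -0.23). The 2 were the complex IV subunits Cox7b (-1.89 ± 0.42, SE, adjusted p = 0.016, edgeR) and Cox6b1 (-1.79 ± 0.45, adjusted p = 0.031). Of 22 genes of mitochondrial transcription and genome upkeep, 1 rose, the helicase Twnk (0.91 ± 0.21, adjusted p = 0.021), and 0 fell. Of 30 genes of mitochondrial RNA processing and decay, 0 passed in either direction, and of 11 regulators of mitochondrial content 1 rose, the transcription factor Nrf1 (0.62 ± 0.17, adjusted p = 0.041). Of 13 genes of mitophagy and mitochondrial dynamics 1 fell, the mitophagy receptor Fundc1 (-0.96, adjusted p = 0.037). RNAs that lack a long poly-A tail (histone and small structural RNAs) gave 0 calls of 17, with a median of 0.17. Among markers of other cells, 8 of 10 neutrophil genes fell (median -3.43). Their summed level was 1688 and 5700 CPM in earlier vector lymphomas and 57.9 to 939 in later ones, 161 to 902 in earlier normal samples and 83.4 in the later one. Of 10 macrophage and monocyte genes 2 fell, and the B cell, T cell, NK and cytotoxic, erythroid, megakaryocyte and platelet, plasmacytoid dendritic and nuclear-retained RNA lists gave 0 calls. The part of neutrophil RNA in the mitochondrial difference was not tested.

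Within the earlier runs the question was whether the lymphomas differed from normal B220+ cells, and Myc from vector lymphomas, in mitochondrial transcripts. Against normal samples, 11 of 34 tested members rose in Myc lymphomas and 0 fell, where 12.7% of the 18505 genes tested were called higher and 7.97% lower (20.6% in either direction). All 34 log2 fold changes were above 0, with a median of 1.27 over the 13 protein genes (0.89 for mt-Nd4l to 1.68 for mt-Nd1), against 0.13 over all genes. The 11 were 4 protein genes, mt-Rnr1 and 6 tRNAs. Left out 1 at a time, any of normal replicates 2, 3 and 4 took the count from 11 to 1, and so did the instrument as a term, while DESeq2 called 28. The 1 that remained under each of these 4 alternatives was mt-Tt.

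mt-Nd1, a complex I subunit, held 4512, 4134 and 3624 CPM in the earlier normal samples and 5915 CPM at the lowest, 11577 at the median and 24501 at the highest in the Myc lymphomas. Every Myc lymphoma lay above every earlier normal sample. The difference was 3.21-fold (log2 fold change 1.68 ± 0.47, SE, adjusted p = 0.023, edgeR). The other called protein genes were the complex I subunits mt-Nd4 (1.49 ± 0.44, adjusted p = 0.03) and mt-Nd6 (1.46 ± 0.42, adjusted p = 0.026) and mt-Atp8 of complex V (1.33 ± 0.45, adjusted p = 0.048). mt-Co1 ranged from 12216 to 71294 CPM in the Myc lymphomas, overlapped with the normal samples and did not pass (1.27 ± 0.53, adjusted p = 0.096), though it did without Myc replicate 5 (adjusted p = 0.019). In 15 members, 7 of them protein genes, every Myc lymphoma lay above every earlier normal sample, as for 14.0% of all genes tested. A further 14.6% of all genes lay lower in Myc lymphomas without overlap.

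mt-Tt, the tRNA for threonine just after mt-Cytb, separated the Myc lymphomas from the rest. It stood at 0.609, 0.486 and 0.832 CPM in the earlier normal samples (35, 27 and 41 counts) and at 1.52 and 0.864 CPM in the earlier vector lymphomas (67 and 49 counts). The Myc lymphomas held 2.41 CPM at the lowest, 5.03 at the median and 21.0 at the highest (102 to 723 counts). Every Myc lymphoma lay above every normal and vector sample of either period, the highest of which held 1.52 CPM. Within the earlier runs, 14.0% of all genes tested lay higher in Myc lymphomas without overlap against normal samples. Against vector lymphomas 9.48% did. Against normal samples the difference was 10.5-fold (log2 fold change 3.39 ± 0.68, SE, adjusted p = 0.0045, edgeR), and the adjusted p stayed between 0.0016 and 0.036 when any of the 13 samples was left out. Against vector lymphomas the difference was 5.66-fold (2.50 ± 0.77, SE, adjusted p = 0.065, edgeR) and did not pass. DESeq2 and the fit of all 20 samples with a run term called it (adjusted p = 0.0024 and 0.0095). With Myc and normal samples left out 1 at a time, only the fits without Myc replicate 2, 3 or 5 called it. Over all samples left out, its log2 fold change against vector lymphomas ranged from 1.99 to 2.92.

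A further 5 tRNAs rose against normal samples, 4 of them from at most 68 counts in any normal sample. mt-Tq, for glutamine, held 0.435, 0.738 and 0.183 CPM in normal replicates 2, 3 and 4 (25, 41 and 9 counts) and 1.49 CPM at the lowest, 2.84 at the median and 48.9 at the highest in Myc lymphomas, the highest being Myc replicate 5 (log2 fold change 4.41 ± 1.35, SE, adjusted p = 0.033, edgeR). mt-Tv, for valine, which lies between the 2 rRNA genes, rose by 3.0 ± 0.79 (adjusted p = 0.017), and mt-Tl1, for leucine, by 1.66 ± 0.51 (adjusted p = 0.033) from 670, 460 and 553 counts in the normal samples. mt-Te, for glutamate, rose by 2.82 ± 0.94 (adjusted p = 0.046), and mt-Tl2, also for leucine, by 3.55 ± 1.20 (adjusted p = 0.049) from 17, 4 and 5 counts in the normal samples. With DESeq2's size factors mt-Tl2, mt-Te and mt-Atp8 stood at adjusted p = 0.052, 0.05 and 0.055. Of 17 tested RNAs without a long poly-A tail, 6 rose, 0 fell and 11 did not pass (median 2.57), where 12.7% of all genes were called higher. Their part in the tRNA and rRNA differences was not tested.

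Between Myc and vector lymphomas of the earlier runs, 0 of 34 members passed the test in either direction, where 7.37% of all genes tested were called (2.97% higher and 4.40% lower). At an unadjusted p under 0.05 there was 1, mt-Tt, against 22.7% of all genes, and DESeq2 called 1 member higher. The 13 protein genes lay between 0.30 and 0.93 on the log2 scale, with a median of 0.70 against 0.08 over all genes. mt-Nd1 stood at 8387 and 5341 CPM in the vector lymphomas, within the range of the Myc lymphomas (0.93 ± 0.53, SE, adjusted p = 0.32, edgeR), and mt-Co1 at 19601 and 19223 CPM, also within it (0.81 ± 0.60, adjusted p = 0.46). mt-Rnr2 was lower by estimate (-0.25 ± 0.64, adjusted p = 0.86), and higher (0.72) without vector replicate 7. mt-Nd2 stood at 0.30 ± 0.49 (adjusted p = 0.76) and at -0.04 without vector replicate 8. Non-overlap was seen for mt-Tt alone, against 9.48% of all genes that lay higher in Myc lymphomas without overlap. With 2 vector lymphomas the limits are wide. On simulated counts this comparison recovered 0% of genes changed 2-fold and 28.4% of those changed 4-fold. The simulation changed a smaller share of genes than the 7.37% called here, which makes the adjusted threshold stricter. Its rates hold for that setting only.

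When all 20 samples were pooled with no run term, the same comparison called 23 members higher, with a median of 2.40 over the protein genes. In that pooled comparison 6 of the 8 vector lymphomas are later samples and all Myc lymphomas earlier ones. With a run term added it called 1, mt-Tt. The shares of all genes called by these pooled fits are not given here, so the counts say nothing about the members in particular.

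Vector lymphomas of the earlier runs did not pass the test against normal samples for any of 34 members, where 0.665% of all genes were called (0.621% higher and 0.0432% lower). At an unadjusted p under 0.05 there were 3 members, against 9.63% of all genes, and DESeq2 called 2 higher. All 34 estimates were above 0, with a median of 0.63 over the protein genes (0.38 for mt-Nd3 to 0.75 for mt-Nd1) against 0.04 over all genes. In 15 members, 10 of them protein genes, both vector lymphomas lay above all 3 normal samples, as did 22.0% of all genes tested. mt-Nd1 differed by 0.75 ± 0.57 (SE, adjusted p = 0.83, edgeR), mt-Co1 by 0.46 ± 0.65 (adjusted p = 0.94) and mt-Rnr1 by 1.40 ± 0.76 (adjusted p = 0.64). mt-Rnr1 stood at 2739 CPM in vector replicate 7 and 574 CPM in vector replicate 8, the latter within the normal range of 453 to 784 CPM, and without vector replicate 7 the difference was -0.08. The Myc and vector comparisons with normal samples share the same 3 normal samples.

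**Figure D4:**
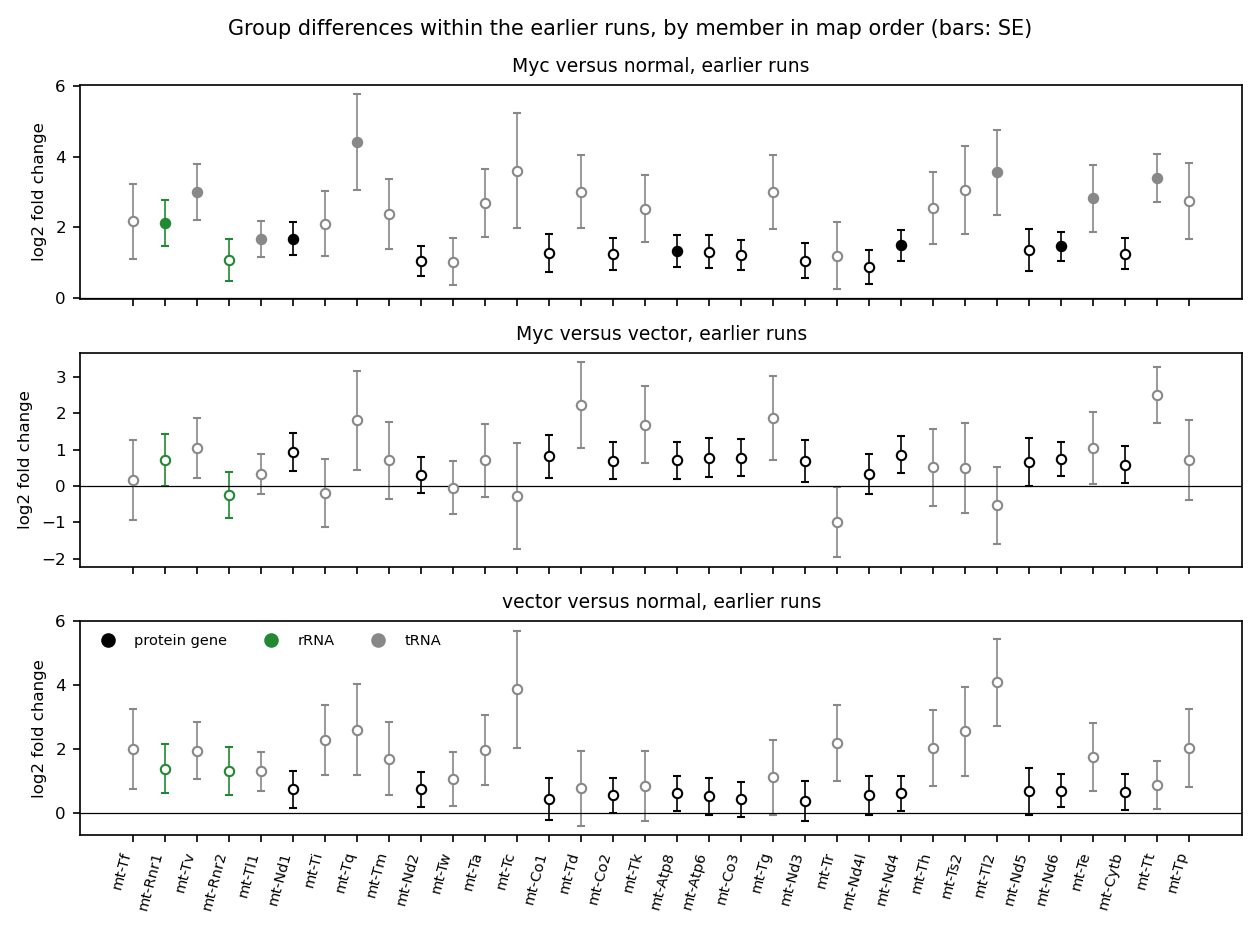
Log2 fold change (y axis; bars are SE) of the 34 tested members in map order for the 3 comparisons within the earlier runs; filled points have an adjusted p under 0.05. Myc against normal has 11 filled points, all above 0, and the other comparisons have 0.

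The make-up of the protein gene counts varied among the 8 Myc lymphomas. mt-Co1 held 13.3 to 38.1% (median 30.8%), against 29.5 to 31.5% in the 3 earlier normal samples. mt-Atp6 held 5.21 to 15%, against 9.46 to 9.71%, and mt-Nd5 held 2.13 to 12.5%, against 5.89 to 5.99%. A range over 8 samples is wider than one over 3 by its number alone, and the 2 groups' spreads were not tested against each other. Myc replicate 5 set the lowest mt-Co1, the highest mt-Atp6 and the lowest mt-Nd5 share, and without it the ranges were 26.7 to 38.1%, 5.21 to 11.3% and 4.29 to 12.5%. Myc replicate 5 stood at an end of several ranges, with 13.3% for mt-Co1, 2.13% for mt-Nd5 and 17.6% for mt-Nd1. It also had the highest ratios of tRNA (8.76 per 1000 protein gene counts) and rRNA (136 per 1000) among Myc lymphomas, and the largest part of reads aligned to more than 1 place (40.3% of all reads, against 22.2% in the lowest Myc lymphoma). The ratio of the 2 rRNAs was higher in each Myc lymphoma than in each other sample. mt-Rnr1 held 434 to 1091 counts per 1000 mt-Rnr2 counts in the Myc lymphomas. The same ratio was 287 to 413 in earlier normal samples and 293 in the later one, 253 and 396 in earlier vector lymphomas and 130 to 324 in later ones. This ratio was chosen after its values were seen and was not tested.

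Nuclear genes that serve the mitochondrial genome were compared in the same samples. Against normal samples, which differ from the Myc lymphomas in lymphoma state and in the VavPBcl2 transgene as well as in Myc, 12.7% of all genes tested were called higher and 7.97% lower. Of 38 nuclear respiratory chain partners, 16 rose and 0 fell against normal samples (median 1.07), among them Ndufv1 of complex I (1.10 ± 0.24, SE, adjusted p = 0.0076, edgeR), Uqcrq of complex III (2.06 ± 0.50, adjusted p = 0.012), Sdhc of complex II (1.14 ± 0.31, adjusted p = 0.021) and Atp5b of complex V (1.07 ± 0.28, adjusted p = 0.016). Their summed level was 3355 to 3679 CPM in earlier normal samples, 3665 and 5175 in earlier vector lymphomas and 5136 to 15186 in Myc lymphomas. Against vector lymphomas 0 of 38 passed (median 0.77), where 2.97% of all genes were called higher.

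Of 30 genes of mitochondrial RNA processing and decay, 8 rose and 0 fell in Myc lymphomas against normal samples (median 0.24), led by the exonuclease Rexo2 (1.90 ± 0.33, SE, adjusted p = 0.0018, edgeR). Over all genes, 12.7% were called higher. Against vector lymphomas 3 of the 30 rose and 0 fell, where 2.97% of all genes were called higher. These were Tbrg4 (1.06 ± 0.27, adjusted p = 0.029), the pseudouridine synthase Pus1 (0.82 ± 0.21, adjusted p = 0.031) and 1110008L16Rik, also named Prorp, the nuclease subunit of mitochondrial RNase P (1.02 ± 0.27, adjusted p = 0.035). Slirp, which binds mitochondrial messenger RNAs with Lrpprc, rose against normal samples (1.73 ± 0.55, adjusted p = 0.04), and Lrpprc did not pass (0.15 ± 0.28, adjusted p = 0.72).

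Of 22 genes of mitochondrial transcription and genome upkeep, 4 rose and 3 fell against normal samples (median -0.10), near the shares over all genes (12.7% higher and 7.97% lower). Slc25a33, a pyrimidine nucleotide carrier, rose (1.5 ± 0.30, SE, adjusted p = 0.0044, edgeR), as did the protease Lonp1 (0.89 ± 0.23, adjusted p = 0.014) and the topoisomerase Top1mt (0.98 ± 0.27, adjusted p = 0.022). Polg, the DNA polymerase of mitochondria, fell (-0.60 ± 0.19, adjusted p = 0.037), and so did Mterf3 (-0.78 ± 0.19, adjusted p = 0.014). The mitochondrial RNA polymerase Polrmt (-0.18 ± 0.17, adjusted p = 0.46) and its factors Tfam (-0.38 ± 0.19, adjusted p = 0.16) and Tfb2m (-0.01 ± 0.22, adjusted p = 0.98) did not pass. Against vector lymphomas 1 of the 22 rose, Twnk (0.99 ± 0.23, adjusted p = 0.02), and 0 fell. Over all genes that comparison called 2.97% higher and 4.40% lower, so 1 call says nothing about this list in particular. The next 2 lists are short and gave 1 or 2 calls each, beside the shares over all genes given here for each comparison. Of 11 regulators of mitochondrial content, 0 rose and 2 fell against normal samples, the coactivator Ppargc1a (-3.87 ± 0.78, adjusted p = 0.0046, at 1.81 to 2.25 CPM in earlier normal samples and 0 to 0.515 in Myc lymphomas) and Tfeb (-0.95 ± 0.25, adjusted p = 0.017). Ppargc1b and Nrf1 did not pass (adjusted p = 0.88 and 0.74). Of 12 tested genes of mitophagy and mitochondrial dynamics, 1 rose, the kinase Pink1 (0.78 ± 0.24, adjusted p = 0.036), and 0 fell, while against vector lymphomas Fundc1 fell (-1.06, adjusted p = 0.021).

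Marker genes of other blood cells moved in the same comparison. Against normal samples, 10 of 10 erythroid genes (median 3.91) and 9 of 10 neutrophil genes (median 3.45) rose in Myc lymphomas. Over all genes tested, 12.7% were called higher and 7.97% lower. Summed erythroid levels were 218 to 3295 CPM in earlier normal samples, 3684 and 5137 in earlier vector lymphomas and 5998 to 82506 in Myc lymphomas. Summed neutrophil levels were 161 to 902, 1688 and 5700, and 1656 to 17012 CPM in the same order, and each marker of both lists reached 1 CPM in at least 1 sample of each of these groups. Of the other lists, B cell genes gave 0 calls higher and 5 lower of 11, T cell genes 0 and 2 of 10, NK and cytotoxic genes 2 and 1 of 8, macrophage and monocyte genes 0 and 1 of 10, megakaryocyte and platelet genes 0 and 1 of 7, plasmacytoid dendritic genes 1 and 0 of 8 and nuclear-retained long RNAs 0 and 1 of 3. Lists with 1 or 2 calls in a direction gave too few beside those shares to say anything about their cells in particular. The later vector lymphomas, outside this comparison, held 13521 to 20349 CPM of erythroid markers. Against earlier vector lymphomas, 0 of 10 erythroid and 0 of 10 neutrophil genes were called in Myc lymphomas, where 7.37% of all genes were called. The part of other blood cells in the mitochondrial differences was not tested.

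Several copies of mitochondrial sequence in nuclear chromosomes had counts that differed between runs as those of the members did. A search of the GENCODE vM21 transcripts, made after the data were seen, found 15 pseudogenes at least 90% identical to a protein member over at least 250 bases, of which 8 were analysed here. Gm11408, like mt-Nd6, was among the 8 and had 11 counts in all 20 samples together, too few to compare. Gm13340 on chromosome 2 is 97.6% identical to mt-Co1 over 1545 bases, with 37 differences. A window of 120 bases shows how alike they are; capitals mark the 6 differing bases (mt-Co1 at MT:6501-6620, plus strand, and Gm13340 at chr2:22588355-22588474, minus strand, GRCm38).
mt-Co1: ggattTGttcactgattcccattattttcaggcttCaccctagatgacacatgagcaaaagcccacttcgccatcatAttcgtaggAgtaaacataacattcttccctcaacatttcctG
Gm13340: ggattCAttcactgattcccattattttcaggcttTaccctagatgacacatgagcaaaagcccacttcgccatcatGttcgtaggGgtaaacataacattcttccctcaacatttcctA
Gm13340 held 44.8 to 77.6 CPM in earlier normal samples and 13.1 CPM in the later one, 72.8 and 96.1 CPM in earlier vector lymphomas and 4.40 to 11.9 CPM in later ones, and 69.7 to 461 CPM in Myc lymphomas. It lay lower in later samples than in earlier ones with no overlap, as mt-Co1 did, and fell by 3.43 ± 0.45 on the log2 scale in vector lymphomas (SE, adjusted p = 0.0003, edgeR). Over all samples it held 5.29 counts per 1000 mt-Co1 counts.

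**Figure D5:**
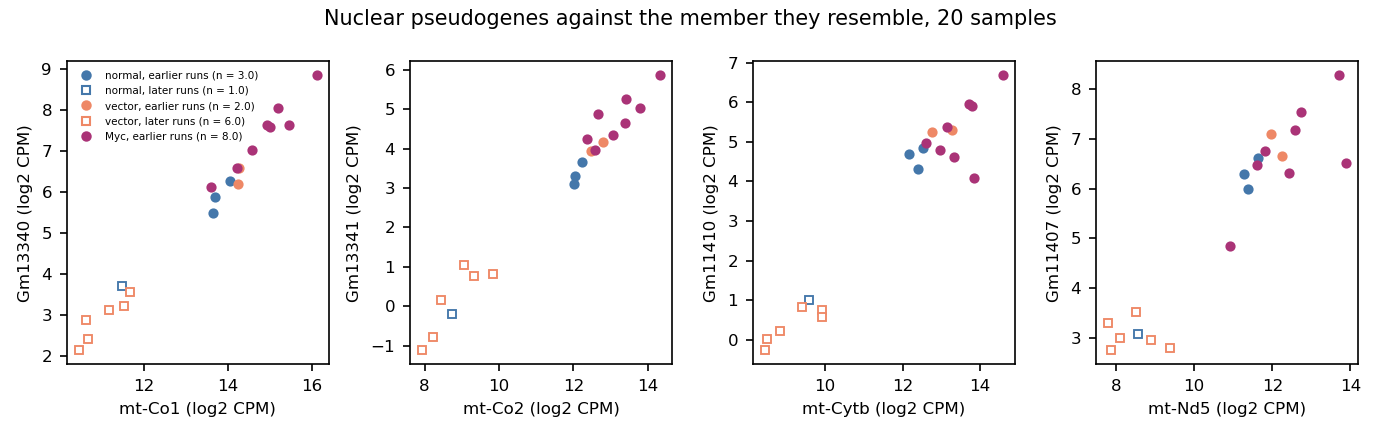
Log2 CPM of 4 nuclear pseudogenes (y axes) against the member each resembles (x axes) in 20 samples, by group and run period. Later samples (open squares) form the low end and earlier samples the high end in each panel.

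The same held for Gm13341 (like mt-Co2), Gm11410 (like mt-Cytb) and Gm11407 (like mt-Nd5), with log2 fold changes of -3.76, -4.92 and -3.82 in later vector lymphomas (adjusted p = 0.00012, 1.2e-05 and 0.00013, edgeR). Gm10222 on chromosome 1 is 100% identical to mt-Nd4l over 294 bases, and the nearby Gm28661, Gm10925, Gm28437 and Gm28439, not analysed here, are 100% identical to mt-Co2, mt-Atp6, mt-Co3 and mt-Nd4 over 681, 678, 783 and 876 bases. Reads from such stretches can align to more than 1 place, so counts of these members may be incomplete.

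The genes outside the set whose log2 CPM was most like the mean of the 13 protein genes over 20 samples, among 10668 genes with a mean of at least 5 CPM, were led by these copies: Gm13341 (Pearson r = 0.99), Gm11410 (0.98), Gm13340 (0.98) and Gm11407 (0.94). Next came Rps26-ps1, Rpl31-ps10 and Gm10222 (0.93 each) and Gm6767, Ndufb4 and Gm5611 (0.92 each), of which Ndufb4, a complex I subunit, is the protein gene. Within the 13 earlier samples the order was Gm13341 (0.95), Rnu3a (0.89), Gm13340 (0.88), Rag1 (0.87), Sema4g and Capn5 (0.86 each), Sorcs2 (0.84), Nacc2 and Gm10222 (0.82 each) and Prg2 (0.81). Of the members themselves, mt-Nd4 followed that mean most closely over 20 samples (r = 1.00) and mt-Nd6 least among protein genes (0.79), with mt-Rnr1 at 0.85 and mt-Rnr2 at 0.72. All points share the scaling of their libraries, and over 20 samples they form separate clusters by run, so those values largely restate the run split; the 13 earlier samples lie within 1 period.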

How the data were processed

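The authors deposited raw counts per Ensembl gene for 20 samples. BWA 0.7.5a, Picard 1.119 and HTSeq are named in the submitters' processing notes, which list NCBIM37 and mm9 as builds; a strand setting for counting was not found in the labels. Per the labels' protocols, poly-A RNA was isolated, cut with RNase III and run on the Ion Proton, so RNAs without long tails may be captured in part. Names, GRCm38 positions and sequences came from GENCODE vM21 (32897 identifiers matched, 4723 did not); 5 lines for unassigned reads were left out.

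Members and lists were chosen with earlier results of these data known. After filterByExpr and TMM scaling, edgeR 4.0.16 (quasi-likelihood F test, two-sided, R 4.3.3) tested each gene, with Benjamini-Hochberg adjusted p under 0.05 called over all genes tested. Groups were compared in a fit of the 13 earlier samples. Runs were compared in a fit of 20 samples in 5 cells of group and run period. CPM use TMM-scaled libraries, and log2 CPM a prior count of 2. Nuclear copies were found with BLAST+ 2.17.0. Alternatives were DESeq2 1.42.0, its size factors, scaling without the members, no filter, other sample sets, run and instrument terms and leaving out each sample. Shares of all genes called are given for the main fits only. Tests were tried first on simulated data in which few genes were changed, and the rates hold for that setting only. Of genes changed 4-fold, 51% were recovered for Myc against normal samples and 19.4% for vector against normal samples. For the run comparisons 40.2% were recovered in vector lymphomas and 12.4% in normal samples. Named genes were all members, 2 to 4 genes of smallest p per list, fixed regulators and the 10 genes most like the protein members; nuclear copies were added after seeing the data. 15 lists with 215 entries were used, and 6 entries had no match by name.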

Additional observations from a re-analysis of the deposited data

Results flagged for a closer look

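Among the 4 normal samples, normal replicate 1 (the later run) lay far below the other 3 in 12 protein genes and in mt-Tw, judged by its gap to the nearest sample relative to the range of the group. Its log2 CPM was 11.47 for mt-Co1 (nearest other sample 13.63), 8.74 for mt-Co2, 8.99 for mt-Co3, 9.58 for mt-Cytb and 8.33 for mt-Atp6. It was 5.76 for mt-Atp8, 8.97 for mt-Nd1, 7.82 for mt-Nd2, 4.79 for mt-Nd3, 8.66 for mt-Nd4, 5.75 for mt-Nd4l and 8.57 for mt-Nd5. mt-Tw stood at -3.97, from 1 count. Among the 8 Myc lymphomas, Myc replicate 2 stood apart for mt-Tt at 4.40 log2 CPM, with the next at 2.75. In all 14 of 92 values and groups examined were singled out. The 13 in normal samples rest on 1 library, so they are not separate instances, and they restate the run split.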

How the results depend on the processing

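No paired analysis was possible because the replicate numbers were given in accession order and do not tie samples of different groups. With DESeq2 the members called higher numbered 1 (Myc against vector), 28 (Myc against normal) and 2 (vector against normal), and those called lower in the later normal sample 10. With all 20 samples and a run term the members called higher were 1, 25 and 1 in the same order. Pooled with no run term, 23 members were called higher in Myc against vector and 18 in Myc against normal, the median of the 13 protein genes was 2.40 for Myc against vector and -0.79 for vector against normal, mt-Rnr2 stood at 0.92 for Myc against vector, and mt-Nd1, mt-Nd3 and mt-Co1 stood at -0.63, -1.06 and -0.83 for vector against normal. The same pooling called higher 4 upkeep, 14 RNA processing and 32 respiratory chain genes for Myc against vector and 28 respiratory chain genes for Myc against normal. The instrument term left 1 member called higher in Myc against normal and put mt-Nd3 at -0.0002 for vector against normal. An additive run term called 16 members lower in the later normal sample, and a fit of normal samples alone called 19. The cause of these changes was not tested, beyond that pooling mixes run periods. The shares of all genes called by these alternative fits are not given here, so their counts say nothing about the members in particular. Scaling without the members changed no direction and no call.

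Leaving out 1 sample at a time, members called higher ranged from 0 to 1 for Myc against vector, from 1 to 16 for Myc against normal, and stayed at 0 for vector against normal; members called lower in later vector lymphomas ranged from 12 to 16. Medians of the 13 protein genes ranged from 0.50 to 0.94, 1.05 to 1.35, 0.39 to 0.83, -4.10 to -3.61 (vector runs), -3.21 to -3.05 (normal runs) and -0.99 to -0.56 (their difference). Signs turned for mt-Nd2 (-0.04 without vector replicate 8; range to 0.69) and mt-Rnr2 (0.72 without vector replicate 7; range from -0.86) in Myc against vector, and for mt-Rnr1 (-0.08 without vector replicate 7; range to 2.13) in vector against normal. Without vector replicate 7 or 8, or normal replicate 1, a cell has 1 or 0 samples: a lone sample was assumed to vary like the others, and without normal replicate 1 the normal run difference could not be fitted.

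With all listed reads as denominator, median shares were 2.84, 0.432, 3.99, 0.316 and 4.89% (earlier and later normal, earlier and later vector, Myc). With gene counts as denominator, the later normal share was 0.696% on protein genes alone. With protein genes as denominator, median mt-Co1 shares were 30.3, 43.6 and 40.0% (earlier and later normal, later vector) and mt-Atp6 shares 9.58, 4.95 and 9.28% (earlier and later normal, earlier vector). Depth limits mainly the tRNAs, several of which have under 10 counts in a sample.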
